A study of Mus musculus with 4 samples.

Results

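The genes described here are 10 genes of dendritic cell (DC) maturation and costimulation, chosen by name: *Relb*, *Cd40*, *Cd80*, *Cd86*, *Cd83*, *Cd274*, *Ccr7*, *Fscn1*, *Ccl22* and *Socs2*. They are 10 of the 40213 gene symbols counted and 10 of the 12393 genes that had enough counts to be tested, so none was lost to the filter on low counts. Bulk RNA-seq was performed on CD24+ emergency progenitors (EPs), CD11c+CD117+ cells that expand in the spleen when Flt3 ligand is given and that can give rise to cDC1s. All donors were 7–10-week-old mice that carried floxed Topbp1 alleles (TopBP1 fl/fl) and received 10 μg of the Flt3L-Ig fusion protein i.p. at the start (day 0) and again on day 3, with the sort on day 9. The 2 WT libraries came from TopBP1 fl/fl mice without Cre, and the 2 libraries labelled TopBP1cKO came from mice that also carried CD11c-cre, in which the CD11c promoter drives Cre in DCs and in other cells with CD11c. The labels do not say whether libraries of a group came from separate mice, so P values measure the spread between these libraries, which may be technical.

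When a DC meets a microbial or inflammatory signal, it stops sampling its surroundings and becomes a cell that instructs T cells. CD80 and CD86 engage CD28 on T cells, CD40 receives the CD40 ligand signal back from them, CD83 is a surface marker of mature DCs that stabilizes MHC class II and CD86, and PD-L1 (*Cd274*) restrains T cells through PD-1. CCR7 steers the maturing cell to the T cell zones, fascin (*Fscn1*) bundles its actin into dendrites, CCL22 attracts T cells with CCR4, and RelB, a subunit of the noncanonical NF-κB pathway, drives much of the program. SOCS2 is a feedback inhibitor of cytokine receptor signaling that is also found in mature DCs. Whether the loss of TopBP1 shifts these genes in EPs is the question the 2 groups address.

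Library totals ran from 14561583 to 15193831 counts, of which the 10 genes held from 0.0525% to 0.0601%. Counts of the targeted gene *Topbp1* were 1102 and 1143 in WT, 773 in TopBP1cKO replicate 1 and 1279 in TopBP1cKO replicate 2 (log2 fold change −0.20, SE 0.21, FDR 0.774 by edgeR). The second of these goes against its label, and the position of the floxed exons is not given in the sources used here, so the groups are called by their labels. TopBP1cKO replicate 2 also stood apart from the other 3 libraries, since its chi-square over genes, per degree of freedom, was 38.7 to 47.6 against them and 11.9 to 14.4 among the others. TopBP1cKO replicate 1 was at 11.9 against WT replicate 1 and 13.5 against WT replicate 2, both below the 14.4 between the WT libraries. The gate genes were present throughout: *Itgax* (CD11c) was at 614.3 to 689.9 CPM (counts scaled to a fixed library total), *Kit* (CD117) at 481.3 and 475.1 CPM in WT and 394.8 and 382.6 CPM in TopBP1cKO, and *Cd24a* at 971.7 and 926.3 CPM in WT and 884.5 and 755.7 CPM in TopBP1cKO. Both were lower without overlap, with a log2 fold change of −0.30 (SE 0.12, unadjusted P 0.0362, FDR 0.436 by edgeR) for *Kit* and −0.21 (SE 0.14, FDR 0.634) for *Cd24a*. *Xcr1*, a receptor of cDC1s, was at 626.2 to 753.2 CPM.

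No member passed FDR < 0.05 in either direction by the edgeR quasi-likelihood test, where 0.105% of all genes did (0.0807% higher, 0.0242% lower). None passed by limma-voom, the likelihood ratio test of edgeR or the Wald test of DESeq2 either. *Cd274* and *Fscn1*, 2 of the 10, had an unadjusted P below 0.05 by the quasi-likelihood test, against 10.7% of all genes. Each of the 3 other tests gave the same number. Of all genes, 5.18% were higher and 2.82% lower at this P by DESeq2. The shares were 5.93% and 3.85% by limma-voom, and 7.34% and 3.64% by the likelihood ratio test. The direction was higher for 6 members and lower for 4 in the libraries labelled TopBP1cKO, with a median log2 fold change of 0.16 beside 0.01 over all genes tested. Of the 12393 genes tested, 6345 had a higher and 6048 a lower estimate. In 7 of the 10 the groups did not overlap, 4 higher and 3 lower, where 43.6% of all genes showed this (22.8% higher, 20.8% lower). The smallest P value that an exact permutation of 2 against 2 libraries allows is 0.333, so the P values given are those of models fitted over all genes. In bulk RNA, fewer cells that express a gene and less RNA per cell cannot be told apart.

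**Figure D1:**
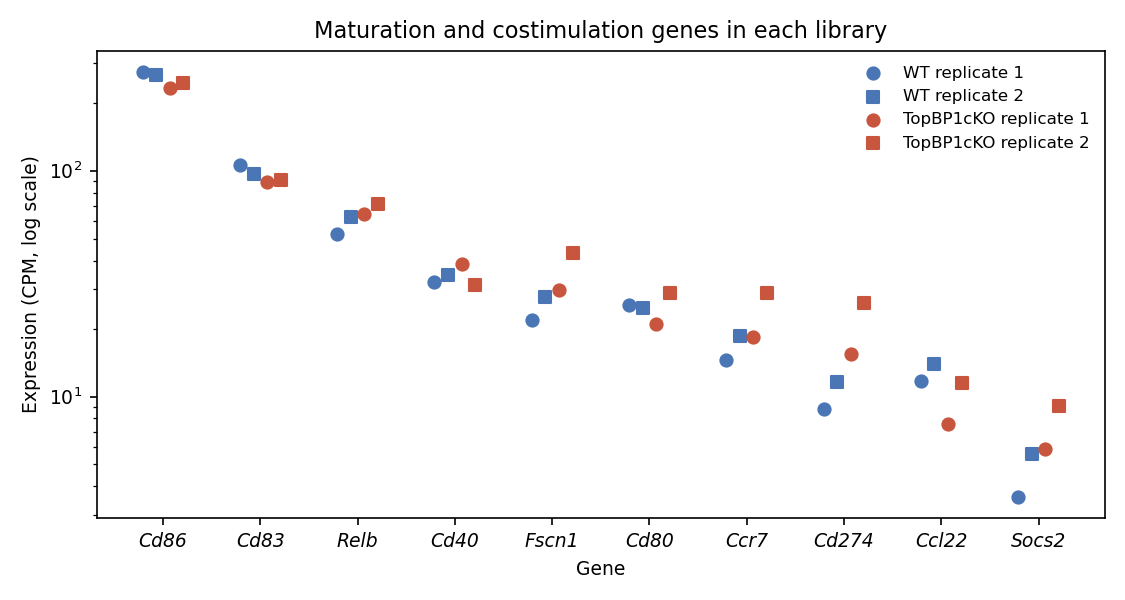
Expression of the 10 genes in each library, in CPM on a log axis; each point is 1 library, blue for WT and red for the libraries labelled TopBP1cKO, circles for replicate 1 and squares for replicate 2. *Cd86* lies highest, near 254.3 CPM on average, and *Socs2* lowest, near 6.01 CPM, and the red points of *Cd274* both lie above its blue points.

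The members differed widely in level. To compare genes, CPM were divided by the length of a matched transcript in kilobases, which for *Cd86*, *Cd80* and *Relb* is a transcript that holds only 29.3%, 37.4% and 43.5% of the gene's counts. On this per-length scale *Cd86* was highest at 91.2 to 108.0 CPM per kb, followed in order of the mean over the 4 libraries by *Cd83* at 38.8, *Relb* at 28.4 and *Cd80* at 14.7 CPM per kb. *Fscn1*, *Cd40* and *Ccr7* had means of 11.5, 11.4 and 10.1 CPM per kb, and the ranges of these 3 over the libraries overlapped with that of their neighbor in the order, as did the range of *Fscn1* with that of *Cd80*. The lowest means were those of *Ccl22* (5.03 CPM per kb), *Cd274* (4.26 CPM per kb) and *Socs2* (2.71 CPM per kb), and here too the ranges of neighbors overlapped. *Cd86* did not overlap with *Cd83*, *Cd83* with *Relb*, *Relb* with *Cd80*, or *Ccr7* with *Ccl22*.

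*Cd274*, which encodes the coinhibitory ligand PD-L1, showed the largest difference among the members. It had 125 and 175 counts in WT and 236 and 400 in TopBP1cKO replicates 1 and 2, or 8.83, 11.6, 15.5 and 25.9 CPM. Both libraries labelled TopBP1cKO were above both WT libraries, with a gap of 1.34-fold between the nearest libraries of the groups, and the libraries within a group differed by 1.31-fold in WT and 1.67-fold in TopBP1cKO. The mean was 10.2 ± 1.94 CPM in WT and 20.7 ± 7.34 CPM in TopBP1cKO (SD, n = 2 each), a log2 fold change of 1.02 (SE 0.28, 95% interval 0.37 to 1.66). The unadjusted P was 0.00684 and the FDR 0.315 by the edgeR quasi-likelihood test, rank 269 of all genes. The FDR came to 0.0823 by the Wald test of DESeq2, 0.0553 by the likelihood ratio test of edgeR and 0.45 by limma-voom, and over all alternatives it ranged from 2.39e-05 to 0.999. TopBP1cKO replicate 2 carried more of the difference than replicate 1: the log2 fold change was 0.59 (FDR 0.158) without replicate 2 and 1.34 (FDR 2.39e-05) without replicate 1, both by edgeR with the lone library assumed to vary like those of the WT group.

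*Fscn1*, which encodes the actin-bundling protein fascin, had 309 and 419 counts in WT and 451 and 671 counts in TopBP1cKO replicates 1 and 2. The groups did not overlap, but the nearest libraries differed by only 1.07-fold and TopBP1cKO replicate 2 was 1.47-fold above replicate 1. The means were 24.8 ± 4.16 CPM in WT and 36.5 ± 9.75 CPM in TopBP1cKO (SD, n = 2 each), and the log2 fold change was 0.56 (SE 0.22, unadjusted P 0.0334, FDR 0.424 by edgeR). Without TopBP1cKO replicate 2 the log2 fold change was 0.25, and without TopBP1cKO replicate 1 it was 0.81. Without WT replicate 1 it was 0.40, and without WT replicate 2 it was 0.73.

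Among the genes with an entry in the RefSeq promoter table (GRCm38.p6, 4 of the 10 members), *Cd274* and *Fscn1* are the members with the lowest P values, and the 250 bases before their starts are shown for that reason. The deposited counts were made on GRCm39, so these coordinates belong to the table and not to the counts. Capitals mark matches to TATAAA and to TGACGTCA, the cAMP response element, which were added to the search after the sequences were seen.
*Cd274*, chr19:29367188-29367437, + strand: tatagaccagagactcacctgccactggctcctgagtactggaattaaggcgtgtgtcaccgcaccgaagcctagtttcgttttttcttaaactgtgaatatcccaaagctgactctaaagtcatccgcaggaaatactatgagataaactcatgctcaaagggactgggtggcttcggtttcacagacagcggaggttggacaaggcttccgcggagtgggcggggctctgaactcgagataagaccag
*Fscn1*, chr5:142960105-142960354, + strand: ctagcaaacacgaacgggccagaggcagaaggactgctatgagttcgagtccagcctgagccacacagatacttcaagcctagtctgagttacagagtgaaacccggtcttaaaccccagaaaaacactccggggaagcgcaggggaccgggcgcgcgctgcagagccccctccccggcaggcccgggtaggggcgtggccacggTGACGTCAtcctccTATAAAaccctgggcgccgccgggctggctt
The *Fscn1* stretch held TATAAA at positions −31 to −26 and TGACGTCA at positions −45 to −38 from the start, and the *Cd274* stretch held neither. In windows that also take in 50 bases past the start, on both strands, 13.6% of the 32851 promoters in the table held TATAAA and 1.79% held TGACGTCA. An NF-κB consensus site was in 8.46% of them, the PU.1 core GAGGAA in 28.3%, the IRF repeat in 3.44% and the ETS–IRF composite in 2.72%. No match to these 4 was in the windows of *Cd274*, *Fscn1*, *Cd80* or *Ccl22*, which says only that these letters are not in these windows.

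The migration receptor *Ccr7* had 205 and 280 counts in WT and 281 and 446 counts in TopBP1cKO replicates 1 and 2. In CPM, which take depth into account, TopBP1cKO replicate 1 (18.4) was just under WT replicate 2 (18.5), so the groups overlapped, and only TopBP1cKO replicate 2 (28.8) stood above both WT libraries. By library totals alone, without TMM, they did not overlap. The log2 fold change was 0.52 (SE 0.24, FDR 0.505 by edgeR). It was 0.15 without TopBP1cKO replicate 2 and 0.80 without TopBP1cKO replicate 1. Without WT replicate 1 it was 0.351, and without WT replicate 2 it was 0.695.

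*Socs2*, the cytokine feedback inhibitor, was the member with the fewest counts, 51 and 84 in WT and 89 and 140 in TopBP1cKO replicates 1 and 2. The groups did not overlap, with a nearest gap of 1.05-fold beside 1.54-fold and 1.55-fold between the libraries within WT and TopBP1cKO. Its log2 fold change was 0.70 (SE 0.33, 95% interval −0.07 to 1.47, FDR 0.505 by edgeR). Libraries of both groups weighed on it. The log2 fold change was 0.34 without TopBP1cKO replicate 2 and 0.98 without TopBP1cKO replicate 1. It was 0.42 without WT replicate 1 and 1.03 without WT replicate 2.

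*Relb*, the transcription factor of the group, had 745 and 942 counts in WT and 983 and 1103 counts in TopBP1cKO replicates 1 and 2. Both libraries labelled TopBP1cKO were above both WT libraries in CPM, by 1.04-fold at the nearest point. The log2 fold change was 0.24 (SE 0.14, 95% interval −0.08 to 0.56, FDR 0.589 by edgeR), and it stayed between 0.12 and 0.36 as each library was left out.

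*Cd86*, *Cd80*, *Cd40* and *Cd83*, the surface molecules other than PD-L1 and CCR7, had the 4 estimates nearest to 0. *Cd86*, the most abundant member, had 3873 and 4025 counts in WT and 3528 and 3799 counts in TopBP1cKO replicates 1 and 2, or 273.7, 266.3, 231.6 and 245.7 CPM. The 2 groups did not overlap, with the libraries labelled TopBP1cKO lower by 1.08-fold at the nearest point. The log2 fold change was −0.18 (SE 0.11, 95% interval −0.44 to 0.09, FDR 0.617 by edgeR), so that a fall of the whole-gene level to below 0.736 of WT lies outside the interval.

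*Cd80*, the second CD28 ligand, had 361 and 374 counts in WT and 319 and 445 counts in TopBP1cKO. Its TopBP1cKO libraries lay on either side of both WT libraries, 20.9 and 28.8 CPM against 25.5 and 24.7 CPM. The log2 fold change was −0.02 (SE 0.19, 95% interval −0.45 to 0.42, FDR 0.984 by edgeR), and it was 0.03 by library totals alone, so it has no direction here.

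*Cd40*, the receptor for the T cell signal, had 453 and 521 counts in WT and 590 and 483 counts in TopBP1cKO replicates 1 and 2. TopBP1cKO replicate 1 was the highest library and TopBP1cKO replicate 2 the lowest in CPM (38.7 and 31.2), with both WT libraries between them. The log2 fold change was 0.07 (SE 0.16, 95% interval −0.29 to 0.44, FDR 0.905 by edgeR), and it was −0.09 without TopBP1cKO replicate 1.

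*Cd83*, the maturation marker, had 1504 and 1466 counts in WT and 1364 and 1409 counts in TopBP1cKO replicates 1 and 2. The groups did not overlap, and the libraries labelled TopBP1cKO were lower by 1.06-fold at the nearest point. The log2 fold change was −0.17 (SE 0.12, 95% interval −0.44 to 0.10, FDR 0.65 by edgeR).

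*Ccl22*, the chemokine for CCR4+ T cells, had 165 and 210 counts in WT and 115 and 178 counts in TopBP1cKO replicates 1 and 2. TopBP1cKO replicate 1 was low at 7.55 CPM, whereas TopBP1cKO replicate 2 at 11.5 CPM lay 1.01-fold under WT replicate 1 at 11.7 CPM, and by library totals alone the groups overlapped. Its log2 fold change was −0.42 (SE 0.25, 95% interval −1.01 to 0.17, FDR 0.598 by edgeR). Here the difference came mostly from the other library, with −0.77 (FDR 0.0704) without TopBP1cKO replicate 2 and −0.15 (FDR 0.626) without TopBP1cKO replicate 1.

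**Figure D2:**
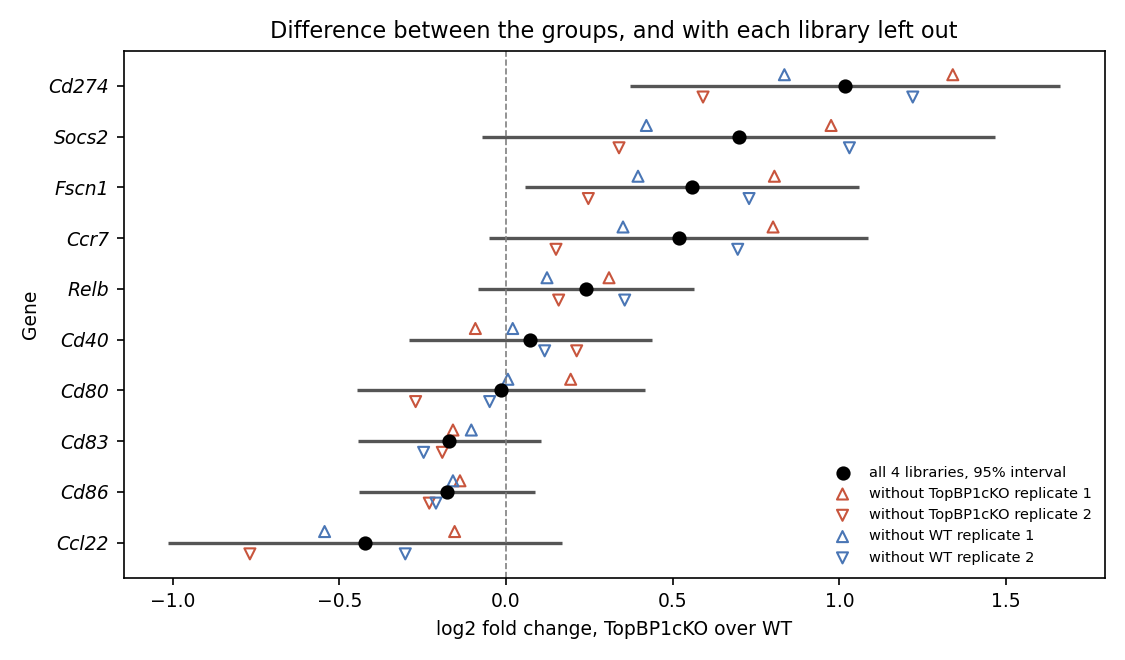
Log2 fold change of each gene in the libraries labelled TopBP1cKO over WT; black points with bars give the estimate from 4 libraries and its 95% interval, and open triangles give the estimate with 1 library left out. The bars of *Cd274* and *Fscn1* alone lie off 0, and the triangles without TopBP1cKO replicate 2 lie left of the black points for each gene but *Cd40*.

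Read by library, then, TopBP1cKO replicate 2 was the highest of the 4 for *Relb*, *Cd80*, *Cd274*, *Ccr7*, *Fscn1* and *Socs2*. WT replicate 1 was the lowest for *Relb*, *Cd274*, *Ccr7*, *Fscn1* and *Socs2*. TopBP1cKO replicate 1 was the lowest for *Cd80*, *Cd86*, *Cd83* and *Ccl22*. Without TopBP1cKO replicate 1, 4 members passed FDR < 0.05 (*Cd274*, *Ccr7*, *Fscn1* and *Socs2*, all higher), but in that fit 1432 genes were called higher and 1193 lower, 11.2% and 9.33% of all genes tested. Without TopBP1cKO replicate 2 no member passed, while 142 genes were called higher and 81 lower. In that fit by edgeR, 3 members had an unadjusted P below 0.05, 1 higher and 2 lower, where 6.08% and 5.16% of all genes did.

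The counts on each transcript showed where several of these genes were not of one piece. The authors' files list 56 RefSeq transcripts of the 10 genes, of which 41 had a count and 27 had enough to be tested as features of their own. *Ccr7*, *Fscn1* and *Ccl22* each had counts on 1 transcript, whereas *Relb* had them on 10. None of the 27 passed FDR < 0.05 by edgeR, and 3 had an unadjusted P below 0.05, where 0% and 6.82% of the 29581 transcripts tested did. No member transcript had 20 counts or more in both libraries of one group and 0 in both of the other. This pattern was rare: of the 53465 rows with a count over all genes, 436 had the counts in WT and 509 in TopBP1cKO.

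*Cd83* was counted on 2 transcripts with estimates of opposite sign. NM_009856.3 had 1279 and 1278 counts in WT and 1070 and 1067 in the libraries labelled TopBP1cKO (log2 fold change −0.33, SE 0.09, unadjusted P 0.029, FDR 0.566 by edgeR). NM_001289915.1 had 225 and 188 counts in WT and 294 and 342 in TopBP1cKO (log2 fold change 0.55, SE 0.27, unadjusted P 0.119). The share of the second in the counts of *Cd83* was 15% and 12.8% in WT and 21.6% and 24.3% in TopBP1cKO, with no overlap; this share was not tested by itself. The rule by which reads were divided between transcripts is not given in the sources used here.

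For *Cd86*, most counts were on XM_006521741.1, with 67.8% over the 4 libraries and a log2 fold change of 0.01 (SE 0.14). NM_019388.3 had 1103 and 1506 counts in WT and 960 and 893 counts in TopBP1cKO (log2 fold change −0.55, SE 0.16, unadjusted P 0.0339, FDR 0.59 by edgeR). The same unknown rule for dividing reads bears on these rows. For *Cd40*, NM_170704.2 had 4 counts in each WT library and 51 and 19 in the libraries labelled TopBP1cKO (log2 fold change 3.03, SE 0.99, unadjusted P 0.0458, FDR 0.698 by edgeR). It made up 8.64% of the counts of *Cd40* at most, and the main transcript NM_011611.2 had a log2 fold change of −0.05 (SE 0.26). For *Cd274*, NM_021893.3 held 87.8% of the counts, with 103 and 175 in WT and 236 and 308 in TopBP1cKO (log2 fold change 0.91, SE 0.38, unadjusted P 0.086, FDR 0.939 by edgeR).

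**Figure D3:**
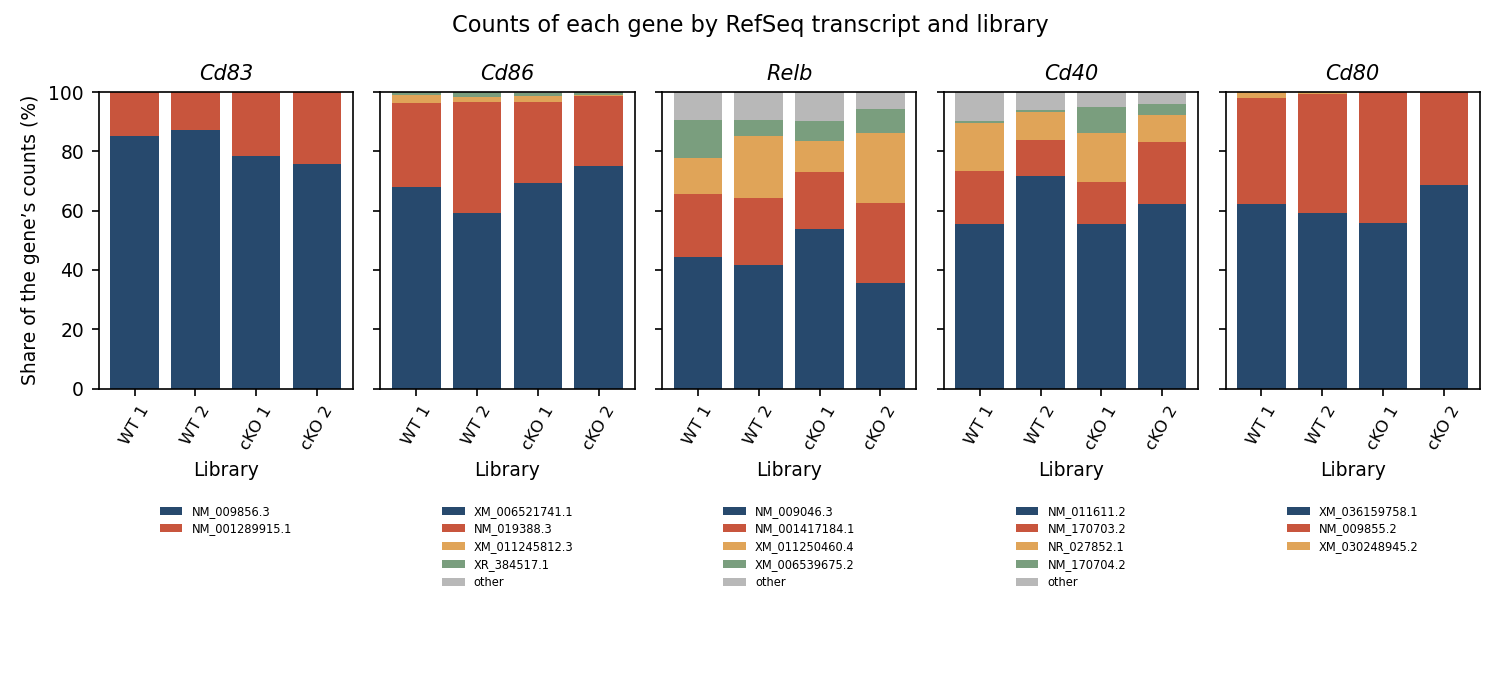
Share of each gene's counts (%) on each RefSeq transcript, by library, for *Cd83*, *Cd86*, *Relb*, *Cd40* and *Cd80*; the 4 most abundant transcripts are named, the rest are grey, and cKO stands for the libraries labelled TopBP1cKO. For *Cd83* the red segment, NM_001289915.1, is taller in both cKO libraries (21.6% and 24.3%) than in both WT libraries (15% and 12.8%).

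The wider mature and migratory DC program had mostly higher estimates in TopBP1cKO. Of 22 other genes of that program, 21 were tested, and 17 had a higher and 4 a lower estimate in TopBP1cKO, where 6345 of all 12393 genes had a higher one. The median log2 fold change was 0.30 beside 0.01 over all genes. No gene of this list passed FDR < 0.05 by edgeR, DESeq2, the likelihood ratio test or limma-voom. By edgeR 5 had an unadjusted P below 0.05, 4 higher and 1 lower, where 6.95% and 3.77% of all genes did. The median was 0.53 without TopBP1cKO replicate 1, where 8 genes of the list were called higher and 2 lower (11.2% and 9.33% of all genes were), and 0.07 without TopBP1cKO replicate 2, where 2 were called higher and 2 lower (1.11% and 0.633% of all genes were).

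Of the 4 higher genes, *Ccl5*, a chemokine for T cells, was at 11.8 and 13.2 CPM in WT and 21.2 and 17.1 CPM in TopBP1cKO (log2 fold change 0.62, SE 0.19, FDR 0.347). *Il4i1*, an amino acid oxidase of mature DCs, was at 12.4 and 19.3 CPM in WT and 20.9 and 26.3 CPM in TopBP1cKO (0.57, SE 0.24, FDR 0.461). *Anxa3*, an annexin, was at 7.99 and 5.95 CPM in WT and 13.5 and 11.6 CPM in TopBP1cKO (0.85, SE 0.24, FDR 0.334). The TNF receptor *Tnfrsf9* (4-1BB) had 22 counts at most, and its log2 fold change was 1.49 (SE 0.60, FDR 0.447). *Ccl5*, *Anxa3* and *Tnfrsf9*, unlike *Cd274* and *Fscn1*, were higher in TopBP1cKO replicate 1 than in replicate 2. Which of the sorted cells expressed these genes was not tested. The lower gene, *Adam23*, a membrane protein of the ADAM family, was at 90.0 and 91.8 CPM in WT and 56.0 and 76.4 CPM in TopBP1cKO (−0.46, SE 0.16, FDR 0.384). The Treg-attracting chemokine *Ccl17*, a partner of *Ccl22* at CCR4, had at most 5 counts per library.

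The NF-κB genes around *Relb* had small estimates in both directions. All 17 were tested, 8 with a higher and 9 with a lower estimate, and the median log2 fold change was −0.01. *Nfkb1*, the most abundant of them, was at 258.1 and 242.9 CPM in WT and 273.9 and 280.5 CPM in TopBP1cKO (log2 fold change 0.15, SE 0.11, FDR 0.687). *Birc3*, a ubiquitin ligase that restrains the noncanonical pathway and is itself an NF-κB target, was the one with an unadjusted P below 0.05, at 230.2 and 210.3 CPM in WT and 186.1 and 161.9 CPM in TopBP1cKO (−0.34, SE 0.13, unadjusted P 0.0285, FDR 0.401 by edgeR). Of all genes, 6.95% were higher and 3.77% lower at an unadjusted P below 0.05 by edgeR. No gene of the list passed FDR < 0.05, and none did by DESeq2, the likelihood ratio test or limma-voom, whereas 1 was called higher and 1 lower without TopBP1cKO replicate 1, the fit with the most calls over all genes.

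Other ligands that act on T cells gave a similar picture, with 10 of 15 tested, 6 higher, 4 lower and a median log2 fold change of 0.02. *Cd70*, *Tnfsf4* (OX40L), *Tnfsf18* (GITRL), *Cd276* and *Slamf1* did not have enough counts to be tested. *Lgals9*, which encodes galectin-9, a ligand of TIM-3, was at 74.4 and 76.3 CPM in WT and 62.6 and 59.4 CPM in TopBP1cKO (−0.30, SE 0.12, unadjusted P 0.036, FDR 0.436 by edgeR). No other gene of the list had an unadjusted P below 0.05 by edgeR, where 6.95% of all genes were higher and 3.77% lower. No gene of the list passed FDR < 0.05 by edgeR or by the 3 other tests. *Icam1*, the adhesion ligand of LFA-1, was the most abundant of the list at 160.7 to 193.1 CPM, and its log2 fold change was −0.12 (SE 0.12, FDR 0.776). *Pdcd1lg2* (PD-L2), the second ligand of PD-1 beside *Cd274*, had only 11 to 33 counts per library.

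The relatives of *Socs2* had estimates in both directions. Of 9 other SOCS and STAT5 genes 8 were tested, 3 with a higher and 5 with a lower estimate, and the median was −0.05. None had an unadjusted P below 0.05 or passed FDR < 0.05 by edgeR, and none passed FDR < 0.05 by DESeq2, the likelihood ratio test or limma-voom, with 1 called lower without TopBP1cKO replicate 1. *Cish*, another STAT5 target, had at most 8 counts per library. The receptors and ligands on the far side of the members (*Cd28*, *Ctla4*, *Cd40lg*, *Pdcd1*, *Ccl19*, *Ccl21a* and *Ccr4*) had at most 26 counts per library, and 0 of the 7 were tested.

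**Figure D4:**
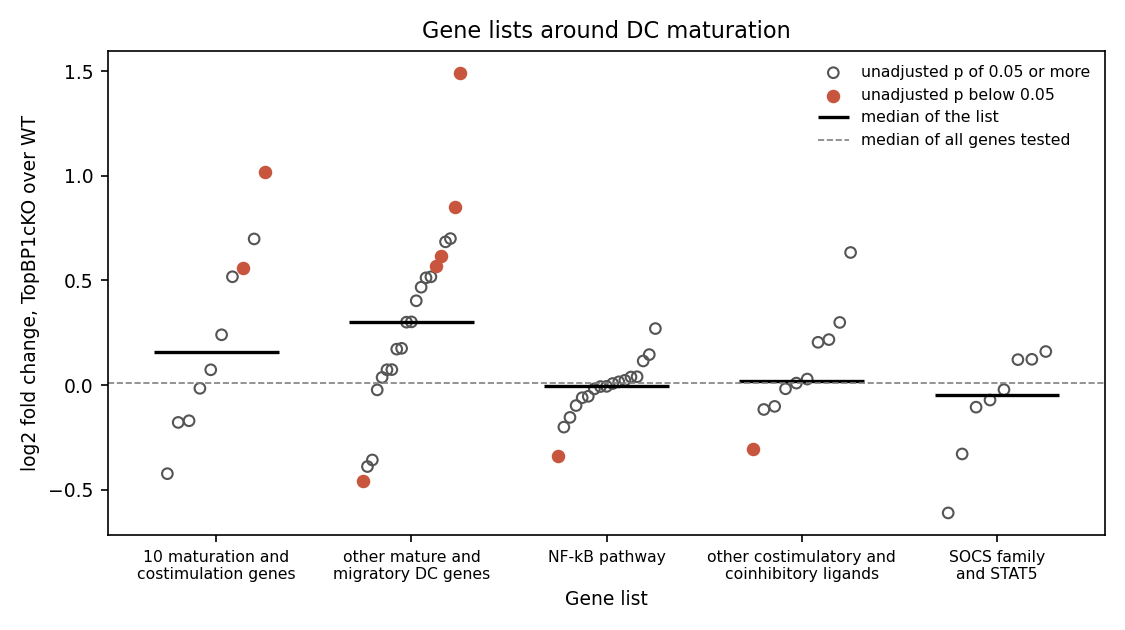
Log2 fold change (TopBP1cKO over WT) of each tested gene in 5 lists; filled points have an unadjusted P below 0.05, black bars are list medians and the dashed line is the median of all genes tested. The medians of the 10 genes (0.16) and of the other mature and migratory genes (0.30) lie above the line, and those of the other 3 lists lie near it.

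Among the marker lists, only that of the neutrophil genes held genes past FDR < 0.05 by the edgeR quasi-likelihood test. All 13 neutrophil genes were higher in TopBP1cKO, 7 of them at FDR < 0.05 by edgeR, where 0.0807% of all genes were. Their median log2 fold change was 1.48, and 1.44 without WT replicate 2, but how many passed FDR < 0.05 depended on which libraries were fitted. Their summed level was 854.6 and 800.7 CPM in WT and 2368 and 2399 CPM in TopBP1cKO. *Ngp*, the most abundant, was at 251.1 and 248.6 CPM in WT and 705.8 and 689.7 CPM in TopBP1cKO. All 20 cell cycle genes were also higher, each with an unadjusted P below 0.05 by the edgeR quasi-likelihood test (14 by limma-voom and 10 by DESeq2). Of all genes, 6.95% were higher at this P by the quasi-likelihood test, 5.93% by limma-voom and 5.18% by DESeq2. None passed FDR < 0.05 by the quasi-likelihood test or limma-voom, and 6 did by DESeq2 and 6 by the likelihood ratio test, where 0.855% and 1.45% of all genes were called higher. Their sum was 781.6 and 747.5 CPM in WT, 989.8 CPM in TopBP1cKO replicate 1 and 2627 CPM in TopBP1cKO replicate 2. The median log2 fold change of the 20 cell cycle genes was 1.28, with 1.85 without TopBP1cKO replicate 1 and 0.356 without TopBP1cKO replicate 2. TopBP1cKO replicate 2 was also the library with the highest *Relb*, *Cd80*, *Cd274*, *Ccr7*, *Fscn1* and *Socs2* and with the lowest *Cd40*. A link between these levels and the cell cycle genes was not tested. The 7 cDC2 markers summed to 86.9 and 99.2 CPM in WT and to 150.8 and 210.1 CPM in TopBP1cKO. *Relb*, *Cd274*, *Fscn1* and *Socs2* had the same order of libraries. Every gene with this order is higher without overlap, as 22.8% of all genes were. How many genes share the full order was not counted, so it sets these 4 apart from no others. Of the 7 markers, 4 were higher at an unadjusted P below 0.05 by edgeR, where 6.95% of all genes were. *Itgam* (CD11b, also a neutrophil gene, 1.67, SE 0.27, FDR 0.153) and *Sirpa* (1.01, SE 0.17, FDR 0.182) had the lowest P values. By edgeR and limma-voom 0 passed FDR < 0.05. By DESeq2 and by the likelihood ratio test 2 were called higher, where 0.855% and 1.45% of all genes were.

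The 8 cDC1 markers summed to 6667 and 6819 CPM in WT and 6449 and 5858 CPM in TopBP1cKO. Of these 8, 6 had a lower and 2 a higher estimate. *Itgae* (CD103) was the higher one at an unadjusted P below 0.05 (0.71, SE 0.17, FDR 0.307 by edgeR) and *Cadm1* the lower one (−0.51, SE 0.16, FDR 0.347). By edgeR 6.95% of all genes were higher and 3.77% lower at this P. The 8 pDC markers summed to 209.2 and 217.0 CPM in WT and 183 and 181.7 CPM in TopBP1cKO. Of the 7 tested, 1 was higher and 2 lower at an unadjusted P below 0.05 by edgeR, where 6.95% and 3.77% of all genes were. B cell markers, of cells that also express *Cd40*, *Cd80*, *Cd86*, *Cd83* and *Ccr7*, summed to 70.3 and 76.3 CPM in WT and 88.4 and 88.9 CPM in TopBP1cKO. T cell markers, of cells that also express *Ccr7*, summed to 13.9 and 9.46 CPM in WT and 24.6 and 13.8 CPM in TopBP1cKO. All 6 tested T cell markers had a higher estimate, with a median log2 fold change of 0.93. By edgeR 1 had an unadjusted P below 0.05, where 6.95% of all genes were higher at this P, and 0 passed FDR < 0.05. Macrophage markers summed to 37.3 and 40.7 CPM in WT and 44.8 and 49.0 CPM in TopBP1cKO. Of the 6 tested, 3 had a higher and 3 a lower estimate. By edgeR 1 of each had an unadjusted P below 0.05, where 6.95% and 3.77% of all genes did. Erythroid markers summed to 16.0 and 13.1 CPM in WT and 18.1 and 18.5 CPM in TopBP1cKO. The part of these cells and of the cell cycle genes in the differences of the members and of the other lists was not tested.

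**Figure D5:**
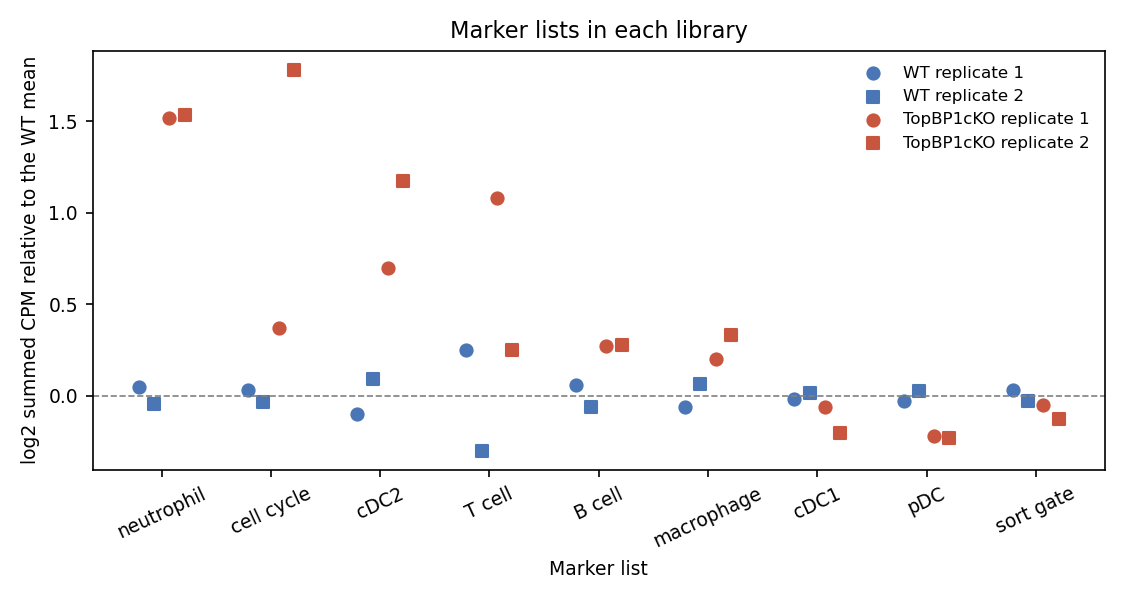
Summed CPM of each marker list in each library, as log2 relative to the mean of the 2 WT libraries; blue is WT, red is TopBP1cKO, circles are replicate 1 and squares replicate 2. Neutrophil sums are alike in both red libraries (2368 and 2399 CPM), whereas cell cycle sums differ between them (989.8 and 2627 CPM).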

How the data were processed

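Per the labels, RNA from sorted CD24+ EPs was taken with TaKaRa RNAiso Plus (the methods name an RNeasy kit), and libraries were made with the CORALL RNA-seq V2 kit. The authors deposited whole-number counts per RefSeq transcript, without normalization; 2558 rows with a symbol but no accession (2143289 counts over the 4 libraries) were summed like the rest. The submitters' processing notes name fastp, STAR, Salmon, GATK and GRCm39; their roles and versions and the counting rule are not given in the sources used here, so the counts may be rounded estimates. Counts were summed per gene symbol. Symbols that passed filterByExpr (12393) were compared between all 4 libraries with TMM and the quasi-likelihood test of edgeR 4.0.16 in R 4.3.3, with Benjamini–Hochberg adjustment over all of them (FDR). CPM use TMM library sizes. No pair of libraries was a duplicate (chi-square per degree of freedom at least 11.9). Lengths came from GENCODE transcripts of GRCm38, and promoters from RefSeq (GRCm38.p6). The members and lists were chosen with earlier results of these data known. All 10 members were named, with genes of the pathway lists at an unadjusted P below 0.05; the most abundant genes of a list could be named. *Ccl17*, *Cish*, *Pdcd1lg2*, the untested ligands, the partners of the members, *Xcr1*, *Itgax*, *Kit*, *Cd24a*, *Itgae*, *Cadm1*, *Itgam* and *Sirpa* are outside this rule, and their choice followed a look at the values. Other normalizations, filters, tests (DESeq2 1.42.0, limma 3.58.1) and left-out libraries were tried. The script was tested on simulated data with 200 changed genes.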

Additional observations from a re-analysis of the deposited data

How the results depend on the processing

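Of the alternatives to the 10 members' values, 131 kept their direction and their side of FDR < 0.05, 5 kept their direction and passed it, and 4 reversed. The reversed values were *Cd40* at −0.0918 without TopBP1cKO replicate 1 (up to 0.212 without TopBP1cKO replicate 2), and *Cd80* at 0.0329 by library totals alone, 0.00573 without WT replicate 1 and 0.194 without TopBP1cKO replicate 1 (down to −0.271 without TopBP1cKO replicate 2). The cause was not tested. The median of all genes stayed between −0.0026 and 0.0542 under every scaling, filter and test. Replicate 1 minus replicate 2 in WT and in TopBP1cKO correlated at −0.03 over genes. With so few libraries this cannot decide whether replicate numbers pair the libraries. With the replicate block, 1 member passed FDR < 0.05 (*Cd274*, 0.99, FDR 0.00356), and all genes gave 395 higher and 109 lower calls, in place of 10 and 3. Over all genes, the DESeq2 Wald test called 106 higher and 31 lower, the edgeR likelihood ratio test 180 and 54, no filter on low counts 16 higher, upper quartile normalization 0 lower, library totals alone 0 lower, and each transcript as its own feature 0 and 0 (2018 at an unadjusted P below 0.05). Marker genes called higher, 7 in the fit reported, were 19 by DESeq2, 21 by the likelihood ratio test and 36 with the block.

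Leaving out 1 library leaves 1 library in a group, assumed to vary like the other group, and the calls then ranged widely. They ran from 1 to 1432 higher and 0 to 1193 lower over all genes, from 0 to 4 members higher, from 0 to 9 higher and 0 to 4 lower in the pathway lists, and from 0 to 42 higher and 0 to 6 lower in the marker lists. The highest of each came without TopBP1cKO replicate 1. The median log2 fold change of the neutrophil genes was 1.44 without WT replicate 2, beside 1.48 in the fit reported. Members with 51 to 671 counts per library, such as *Socs2* and *Cd274*, had an SE of 0.16 to 0.33 (log2), which limits what 2 libraries a group can show.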
